A study of Homo sapiens with 9 samples.

Results

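The SR splicing factor family is described here by 10 genes, SRSF1, SRSF2, SRSF3, SRSF4, SRSF5, SRSF6, SRSF7, SRSF9, SRSF10 and SRSF11, each found by its gene symbol as 1 row among the 60662 genes of the expression table. RNA from SET2 cells, a human leukemia line that grew out of a myeloproliferative neoplasm, was sequenced in bulk in 9 libraries. Of these, 3 came from wild-type (WT) cells, 3 from KO clone 11H1 and 3 from KO clone 14B5, both clones lacking intact DYRK1A by design, and all cells were untreated. The KO cells were made by transfecting Cas9 protein with a guide RNA against DYRK1A, sorting single cells and keeping clones whose indels were all out of frame. Each KO clone therefore descends from 1 cell, and no unedited clone was sequenced, so the effect of the KO and the effect of cloning cannot be told apart. No source says that the 3 libraries of a group came from separate cultures, so the p values below measure the spread between these libraries, which may be technical.

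SR proteins bind short sequences in exons through RNA recognition motifs, and their arginine- and serine-rich (RS) tails recruit the spliceosome to nearby splice sites. Phosphorylation of the RS tail by SRPK, CLK and DYRK kinases moves the proteins into and around the nucleus and sets their activity. Many SR genes also carry a so-called poison exon, whose inclusion sends the transcript to nonsense-mediated decay and lets the protein limit its own mRNA. These data are gene-level counts, so neither phosphorylation nor the choice of a poison exon was measured. The annotation lists from 1 to 6 nonsense-mediated decay transcripts for each of the 10 genes, all of which are summed in the counts.

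The 10 genes lie on 7 chromosomes. In GRCh38 with GENCODE 29, SRSF6 spans chr20:43457928-43464247 on the plus strand, SRSF5 spans chr14:69726900-69772005 on the plus strand, SRSF10 spans chr1:23964804-23980927 on the minus strand and SRSF9 spans chr12:120461668-120469793 on the minus strand. The promoters of these 4 genes are shown because SRSF6 and SRSF10 had the largest rises in 11H1, SRSF5 was the member that set the clones farthest apart and SRSF9 passed the test in none of the 4 comparisons. The 250 bases before the RefSeq start (GRCh38.p14) are printed 5′ to 3′ on the strand of the gene. Capitals mark the reverse complement of TTTGAA, the core of the cell cycle homology region (CHR), in SRSF6, the reverse complement of the E2F motif TTCCCGC in SRSF10, and the ETS motif CCGGAAG in SRSF5, while none of the motifs searched was found in SRSF9.
SRSF6, chr20:43457646-43457895, plus strand: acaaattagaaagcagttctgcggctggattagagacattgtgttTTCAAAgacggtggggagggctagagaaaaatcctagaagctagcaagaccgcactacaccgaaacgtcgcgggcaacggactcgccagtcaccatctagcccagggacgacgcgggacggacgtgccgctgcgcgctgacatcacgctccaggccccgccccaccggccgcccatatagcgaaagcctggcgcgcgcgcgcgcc
SRSF10, chr1:23980328-23980577, minus strand: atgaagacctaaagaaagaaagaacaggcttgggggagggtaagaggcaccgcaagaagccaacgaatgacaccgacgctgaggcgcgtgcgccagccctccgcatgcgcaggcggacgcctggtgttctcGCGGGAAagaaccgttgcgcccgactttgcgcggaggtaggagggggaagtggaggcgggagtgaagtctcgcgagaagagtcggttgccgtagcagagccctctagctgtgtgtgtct
SRSF5, chr14:69766892-69767141, plus strand: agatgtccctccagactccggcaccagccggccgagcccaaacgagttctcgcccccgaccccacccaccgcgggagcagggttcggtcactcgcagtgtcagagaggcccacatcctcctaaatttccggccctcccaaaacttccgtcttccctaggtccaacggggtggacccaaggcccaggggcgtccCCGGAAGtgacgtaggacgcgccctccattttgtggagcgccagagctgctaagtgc
SRSF9, chr12:120469749-120469998, minus strand: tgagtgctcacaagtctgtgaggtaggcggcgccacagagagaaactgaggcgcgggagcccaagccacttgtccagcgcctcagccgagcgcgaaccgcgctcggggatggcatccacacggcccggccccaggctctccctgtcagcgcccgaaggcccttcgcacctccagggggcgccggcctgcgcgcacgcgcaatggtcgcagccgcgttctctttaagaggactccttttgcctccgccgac
RefSeq promoters were matched for 9 of the 10 members (11 promoters), SRSF2 being the exception. Searched on both strands over 250 bases before to 50 bases after the start, TTTGAA was in the promoters of SRSF6 and SRSF11 and in 15.2% of all 35116 promoters. TTCCCGC was in SRSF4 and SRSF10 and in 6.55% of all promoters, and CCGGAAG was in SRSF4 and SRSF5 and in 10.3%. The second E2F form TTGGCGC (3.04% of all promoters) and the cyclic AMP response element TGACGTCA (1.85%) were in no member promoter.

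Library totals ran from 32347779 to 60272245 expected counts. The 10 SR genes were well covered, with 4501 to 37248 counts per gene and library, so that counting error alone was at most 1.49% of a value. Mitochondrially encoded genes took 3.54 to 6.03% of the counts in WT, 7.23 to 7.39% in 11H1 and 3.30 to 3.92% in 14B5. Of 10 megakaryocyte and erythroid markers, 9 reached 1 CPM (a read count scaled to library size) in WT, 8 in 11H1 and 7 in 14B5. Their summed level was 2114 to 2151 CPM in WT, 1788 to 1890 CPM in 11H1 and 1840 to 1892 CPM in 14B5. PF4 was at 0 in both clones, but its mean in WT was already under 1 CPM. Lymphoid markers summed to 39.2 to 43.6 CPM in WT, 30.3 to 30.6 CPM in 11H1 and 29.3 to 32.8 CPM in 14B5. MS4A1 was at 0 in both clones and under 1 CPM on average in WT. The stromal, epithelial and endothelial markers summed to 8.91 to 10.9 CPM in WT, 5.12 to 6.66 CPM in 11H1 and 0.719 to 0.926 CPM in 14B5. The part of these differences in the results below was not tested, and in bulk RNA fewer cells of a type and less RNA per cell cannot be told apart. The targeted gene, DYRK1A, was at 197, 196 and 219 CPM in WT, 188, 191 and 192 CPM in 11H1 and 191, 182 and 174 CPM in 14B5. Its mRNA was lower in 14B5 (log2FC = −0.17, adjusted p = 0.0278, edgeR), a call lost without WT library 3 or 14B5 library 2 or 3 (adjusted p from 0.103 to 0.138, edgeR), and missed the threshold in 11H1 (log2FC = −0.09, adjusted p = 0.131, edgeR). A count over the whole gene does not detect an indel, and the study reports checking the KO at the protein level by western blot.

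In WT cells all 10 SR genes were expressed, and their levels differed several-fold. Per kilobase of mean protein-coding transcript, SRSF1 was highest (313 ± 4.47 CPM per kb, SD, n = 3), followed by SRSF2 (228 ± 5.15). SRSF9 (202 ± 7.28), SRSF5 (185 ± 16.9) and SRSF3 (168 ± 8.85) came next, and neighbours among these 3 overlapped in their libraries. SRSF11 (116 ± 1.01), SRSF10 (115 ± 3.52) and SRSF7 (110 ± 10.9) formed a group in which neighbours likewise overlapped. SRSF4 (85.8 ± 1.35) and SRSF6 (40.8 ± 2.33) were lowest. This order depended on the length used. With the union of all exons SRSF1 and SRSF2 stayed on top, but SRSF9 moved from rank 3 to rank 6, SRSF7 from rank 8 to rank 4, SRSF6 from rank 10 to rank 7, and SRSF4 became the lowest.

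No SR gene was called lower than WT in either clone, and the members differed in whether and how far they rose. In 11H1, 9 of the 10 genes were higher than in WT and none was lower at an adjusted p under 0.05 (edgeR quasi-likelihood test over 16675 genes), where 31.8% of all tested genes were higher and 32.8% lower. In 14B5, 5 of the 10 were higher and none lower, against 24.9% higher and 28.7% lower among all tested genes. Because all 10 genes are abundant, abundant genes, those averaging 100 CPM or more, are a closer background. Among them, 33.9% of 2329 genes were higher in 11H1 and 36.7% in 14B5, so the 14B5 count lies nearer to its background than the 11H1 count does. The median log2FC of the 10 was 0.30 in 11H1 and 0.19 in 14B5, beside −0.0066 and −0.014 for all genes tested and −0.02 and 0.06 for the abundant genes. Both comparisons use the same WT libraries. The WT and 11H1 libraries did not overlap for all 10 genes, where 68.7% of all tested genes did not overlap, and the WT and 14B5 libraries did not overlap for 7 of the 10, where 60.9% did not.

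**Figure D1:**
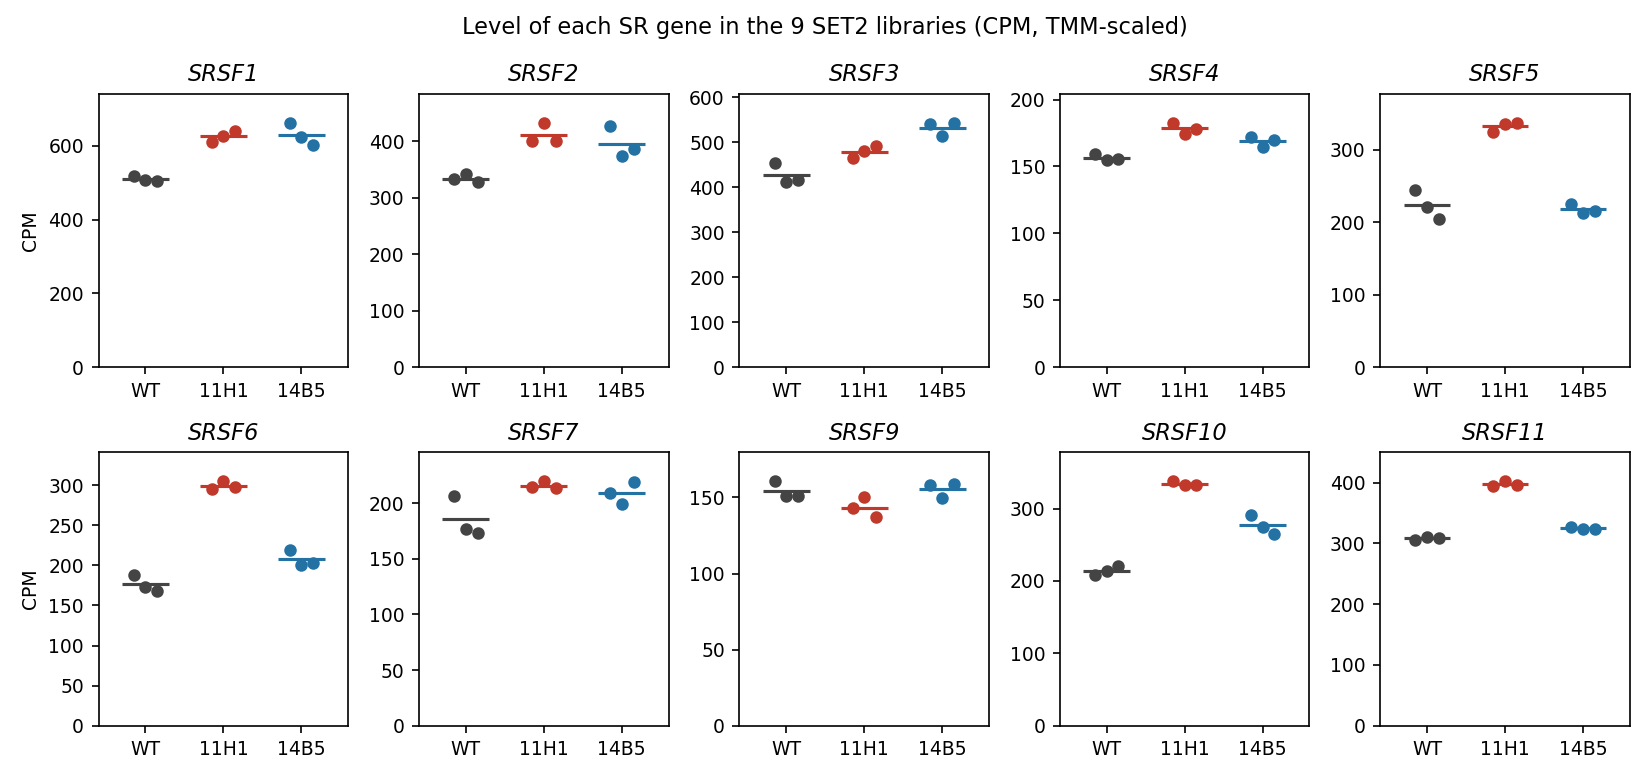
Level of each SR gene (CPM on TMM-scaled library sizes, y axis from 0) in the 3 WT, 3 11H1 and 3 14B5 libraries; points are libraries and lines are group means. SRSF5 and SRSF6 stand highest in 11H1 (means of 332 and 299 CPM), with the 14B5 mean of SRSF5 near WT (218 against 223 CPM) and that of SRSF6 above it (207 against 176 CPM), while SRSF1 is at 626 and 629 CPM in the clones against 509 in WT, and SRSF9 stays between 137 and 161 CPM in all 9 libraries.

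SRSF4, SRSF5 and SRSF6 are closely related SR proteins with long RS tails. SRSF6 had the widest range of group means of the 10 genes. It was at 187, 173 and 168 CPM in WT, 295, 305 and 298 CPM in 11H1 and 220, 200 and 203 CPM in 14B5. Every 11H1 library was above every 14B5 library, and these in turn were above every WT library. SRSF6 rose by a log2FC of 0.77 (SE 0.051, adjusted p = 1.17e-07, edgeR) in 11H1, a larger value than that of 90.6% of the genes tested. In 14B5 its rise was 0.22 (SE 0.059, adjusted p = 0.0103, edgeR). The direct comparison of the clones gave a log2FC of 0.54 (SE 0.046, adjusted p = 1.38e-06, edgeR) for 11H1 over 14B5. The tested genes within 5 Mb of SRSF6 had a median log2FC of 0.13 in 11H1, beside 0.77 for SRSF6 itself. Any part of the surrounding region in the changes of this or another member was not tested. SRSF6 counts were not whole numbers in any of the 9 libraries, so part of its reads was shared out by RSEM among more than 1 place.

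SRSF5 split the clones. It was at 244, 221 and 204 CPM in WT, 324, 336 and 337 CPM in 11H1 and 225, 212 and 215 CPM in 14B5. All 11H1 libraries were above the other 6, and the 14B5 libraries lay within the range of WT. SRSF5 rose in 11H1 by a log2FC of 0.58 (SE 0.062, adjusted p = 6.65e-06, edgeR). Its log2FC in 14B5 was −0.05 (95% interval −0.20 to 0.10, adjusted p = 0.530, edgeR), and 11H1 exceeded 14B5 by 0.62 (SE 0.042, adjusted p = 2.17e-07, edgeR). The neighbours of SRSF5 within 5 Mb had a median log2FC of −0.13 in 11H1, beside 0.58 for SRSF5.

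SRSF4 was at 159, 155 and 156 CPM in WT, 183, 174 and 178 CPM in 11H1 and 172, 165 and 170 CPM in 14B5. The WT libraries were below all clone libraries. SRSF4 rose in 11H1 (log2FC = 0.19, SE 0.044, adjusted p = 0.00216, edgeR), and its value in 14B5 was 0.09 (95% interval −0.0044 to 0.19, adjusted p = 0.0979, edgeR).

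SRSF10, which represses splicing when its RS tail is dephosphorylated, and SRSF11, an SR-like protein found with the factors that recognise splice sites, stand apart from the classical members. SRSF10 was at 208, 213 and 221 CPM in WT, 338, 333 and 333 CPM in 11H1 and 291, 275 and 265 CPM in 14B5. Its 3 groups were fully separated, with 11H1 highest and WT lowest. SRSF10 rose by a log2FC of 0.65 in 11H1 (SE 0.044, adjusted p = 1.40e-07, edgeR) and by 0.35 in 14B5 (SE 0.051, adjusted p = 2.38e-04, edgeR), the largest rise of any member in 14B5. The rise in 11H1 was larger than that in 14B5 (log2FC between the clones 0.28, SE 0.045, adjusted p = 1.78e-04, edgeR).

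SRSF11 was at 306, 311 and 309 CPM in WT, 395, 402 and 396 CPM in 11H1 and 327, 323 and 323 CPM in 14B5. The 11H1 libraries were well above the rest, while the 14B5 libraries sat just above WT without overlap. SRSF11 rose by a log2FC of 0.37 in 11H1 (SE 0.042, adjusted p = 9.39e-06, edgeR). Its value in 14B5 was 0.06 (95% interval −0.037 to 0.15, adjusted p = 0.285, edgeR), and the clones differed by 0.30 (SE 0.038, adjusted p = 2.94e-05, edgeR). The neighbours of SRSF11 had a median log2FC of −0.17 in 11H1 against WT and −0.27 in 11H1 against 14B5, opposite in sign to the gene. In 14B5 against WT their median was 0.099, the same sign as the 0.06 of SRSF11.

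SRSF1 and SRSF9 share the same arrangement of RNA recognition motifs and a short RS tail, and SRSF1, the first SR protein to be purified, also acts outside the nucleus in translation. SRSF1 was at 518, 506 and 504 CPM in WT, 610, 626 and 641 CPM in 11H1 and 662, 623 and 602 CPM in 14B5. Both clones were above WT in every library and overlapped each other. SRSF1 rose by 0.30 in 11H1 (SE 0.044, adjusted p = 7.51e-05, edgeR) and by 0.29 in 14B5 (SE 0.051, adjusted p = 8.69e-04, edgeR) on the log2 scale. The difference between the clones was −0.0014 (95% interval −0.099 to 0.096). SRSF1 counts were not whole in any library, and its exons share 1890 bases with AC015813.2 on the same strand, a gene listed with 132 to 497 counts.

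SRSF9 was at 161, 151 and 151 CPM in WT, 143, 150 and 137 CPM in 11H1 and 158, 149 and 159 CPM in 14B5. The 11H1 libraries lay below those of WT by a narrow gap, and the 14B5 libraries overlapped those of both WT and 11H1. Its log2FC was −0.10 in 11H1 (95% interval −0.21 to 0.011, adjusted p = 0.103, edgeR) and −0.0061 in 14B5 (95% interval −0.12 to 0.10, adjusted p = 0.925, edgeR). The sign in 14B5 turned under another scaling, as the log2FC of SRSF9 was 0.0067 with DESeq2 size factors. Exons of SRSF9 share 1729 bases with GATC on the opposite strand, whose mean level was 60.6 CPM in WT, 69.3 in 11H1 and 79.0 in 14B5. The sources differ on the library kit and do not say whether strand was used in counting, so reads of SRSF9 and GATC in that stretch may not have been separated.

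SRSF2, SRSF3 and SRSF7 carry a lone RNA recognition motif. SRSF2, a nuclear protein that binds exonic enhancers and is mutated in myeloid neoplasms, was at 333, 342 and 327 CPM in WT, 400, 432 and 400 CPM in 11H1 and 427, 373 and 386 CPM in 14B5. The clones overlapped each other and both were above WT. SRSF2 rose by 0.31 in 11H1 (SE 0.048, adjusted p = 1.38e-04, edgeR) and by 0.23 in 14B5 (SE 0.058, adjusted p = 0.00775, edgeR) on the log2 scale. Exons of SRSF2 share 1106 bases with MFSD11 on the opposite strand, whose means were between 23.1 and 23.9 CPM in the 3 groups.

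SRSF3, the smallest SR protein and an adaptor in mRNA export, was at 453, 412 and 416 CPM in WT, 465, 480 and 493 CPM in 11H1 and 540, 513 and 543 CPM in 14B5. Its order differed from that of SRSF6, as 14B5 was highest and 11H1 lay between 14B5 and WT. SRSF3 rose by a log2FC of 0.30 in 14B5 (SE 0.054, adjusted p = 9.32e-04, edgeR) and by 0.17 in 11H1 (SE 0.051, adjusted p = 0.0103, edgeR). Against 14B5 the level in 11H1 was lower (log2FC = −0.14, SE 0.042, adjusted p = 0.00968, edgeR). The 11H1 call was lost without WT library 2 (adjusted p = 0.0651, edgeR), and the call between the clones was lost without 11H1 library 1 (adjusted p = 0.0503, edgeR).

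SRSF7, which holds a zinc knuckle beside its RNA recognition motif and also serves in mRNA export, was at 206, 177 and 173 CPM in WT, 214, 220 and 214 CPM in 11H1 and 209, 199 and 219 CPM in 14B5. WT library 1 was close to both clones and overlapped 14B5, whereas WT libraries 2 and 3 were lower. SRSF7 rose in 11H1 (log2FC = 0.23, SE 0.064, adjusted p = 0.00849, edgeR). Its value in 14B5 was 0.16 (95% interval −0.0016 to 0.32, adjusted p = 0.0873, edgeR), and without WT library 1 it was 0.24 (adjusted p = 0.00650, edgeR). With all libraries kept, SRSF7 passed the threshold in 14B5 with the DESeq2 Wald test, without a filter on low counts and in a fit of 3 groups.

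**Figure D2:**
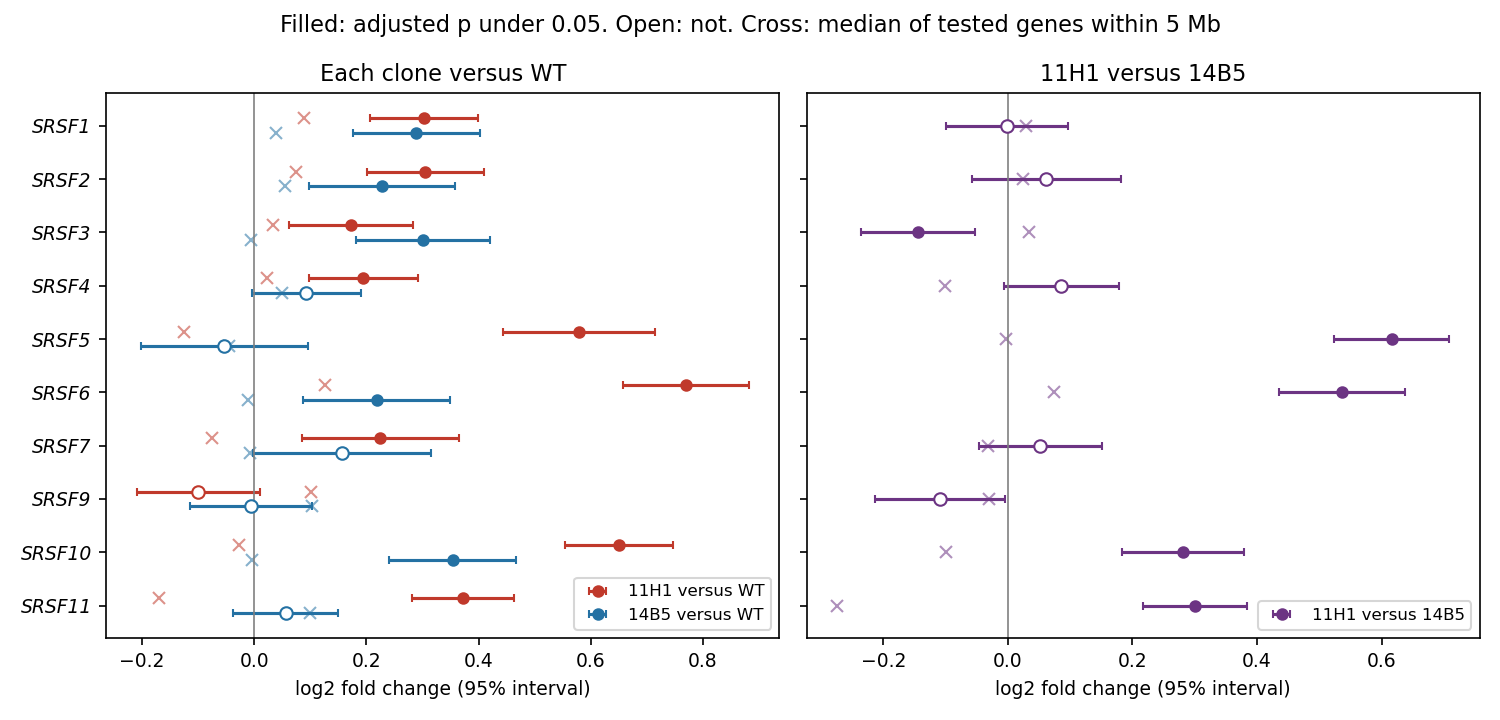
log2 fold change of each SR gene with its 95% interval (x axis), for each clone against WT (left) and for 11H1 against 14B5 (right); filled points have an adjusted p under 0.05, open points do not, and crosses give the median of the tested genes within 5 Mb. SRSF5, SRSF6, SRSF10 and SRSF11 lie to the right of 0 between the clones (0.62, 0.54, 0.28 and 0.30) and SRSF3 to the left (−0.14).

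Set directly against each other, the clones differed in 5 of the 10 SR genes. SRSF5, SRSF6, SRSF10 and SRSF11 were higher in 11H1 and SRSF3 was lower, so 4 of 10 were higher, beside 31.6% of the 16352 genes tested, and 1 of 10 was lower, beside 32.1%. The libraries of the clones did not overlap for 6 of the 10 genes, where 68.7% of all genes did not overlap. These counts are close to the background or below it, although the abundant genes leaned the other way, with 23.0% higher and 51.9% lower in 11H1. SRSF1, SRSF2 and SRSF7 differed between the clones by at most 0.06 on the log2 scale, and the upper ends of their intervals were 0.096, 0.18 and 0.15.

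With the clones pooled as KO (n = 6), 14.3% of the 17080 genes tested were higher than in WT and 17.7% lower. Among the abundant genes, 18.1% were higher and 13.5% lower. Of the SR genes, 6 were higher than in WT and none lower. The 6 were SRSF10 (log2FC = 0.51, adjusted p = 0.00230, edgeR), SRSF1 (0.30, adjusted p = 0.00234), SRSF2 (0.27, adjusted p = 0.00854), SRSF3 (0.24, adjusted p = 0.0241), SRSF6 (0.52, adjusted p = 0.0305) and SRSF4 (0.15, adjusted p = 0.0493). KO and WT libraries did not overlap for 7 of the 10 genes, where 36.6% of all tested genes did not. SRSF5, on which the clones differed, had a pooled log2FC of 0.30 with an SE of 0.18 and missed the threshold (adjusted p = 0.234, edgeR), and the KO libraries ran from 212 to 337 CPM. SRSF7 narrowly missed the threshold (log2FC = 0.20, adjusted p = 0.05002, edgeR), SRSF11 had a value of 0.23 (adjusted p = 0.0928, edgeR) and SRSF9 had −0.05 (adjusted p = 0.602, edgeR). All p values of this comparison treat the 6 KO libraries as replicates, although they come from only 2 founder cells. A 2-sided exact permutation test over the 84 splits gave its smallest possible p of 0.0119 for SRSF1, SRSF2, SRSF3, SRSF4 and SRSF10, and 0.0238 for SRSF6, SRSF7 and SRSF11. With 3 libraries against 3 that test cannot go below 0.1. The pooled calls of SRSF4, SRSF6 and SRSF3 were the least firm, being lost under 13, 8 and 5 of 18 alternative settings, with adjusted p up to 0.146, 0.106 and 0.103 (edgeR) apart from a test for a fold beyond 1.2. SRSF6 missed the threshold when any WT or any 11H1 library was left out, SRSF3 without WT library 2 or 3, and SRSF4 without any library other than 14B5 library 2.

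Summed over the 10 genes, the family was at 2776, 2662 and 2628 CPM in WT, 3367, 3458 and 3427 CPM in 11H1 and 3231, 3033 and 3085 CPM in 14B5. The 3 groups did not overlap, and the mean was 1.27 times that of WT in 11H1 and 1.16 times in 14B5. As a share of all counts without any scaling, the family took 0.264 to 0.271% in WT, 0.343 to 0.351% in 11H1 and 0.301 to 0.321% in 14B5. With mitochondrially encoded genes left out, the ratios to WT were 1.28 and 1.16, so the sum was as large relative to WT without these genes.

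The composition of the family, which does not depend on library scaling, also moved. SRSF6 made up 6.55 ± 0.185% of the family's counts in WT (SD, n = 3), 8.76 ± 0.0574% in 11H1 and 6.65 ± 0.130% in 14B5. SRSF5 made up 8.29 ± 0.526% in WT, 9.72 ± 0.106% in 11H1 and 6.98 ± 0.0168% in 14B5, with no overlap among the 3 groups. The share of SRSF5 thus lay above WT in 11H1 and below it in 14B5, although its mean level in 14B5 was near WT (218 against 223 CPM). The share of SRSF9 was lower in both clones, at 5.73 ± 0.0555% in WT, 4.19 ± 0.178% in 11H1 and 4.98 ± 0.135% in 14B5. The mean level of SRSF9 in 14B5 was near WT (155 against 154 CPM). SRSF10 gained in both clones, from 7.98 ± 0.459% in WT to 9.80 ± 0.208% in 11H1 and 8.88 ± 0.260% in 14B5. SRSF3 went from 15.9 ± 0.419% in WT to 14.0 ± 0.306% in 11H1 and 17.1 ± 0.473% in 14B5, the opposite order to SRSF5. The mean level of SRSF3 in 11H1 was nonetheless above WT (479 against 427 CPM). SRSF1 remained the largest part in every group, with 18.9% in WT, 18.3% in 11H1 and 20.2% in 14B5.

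**Figure D3:**
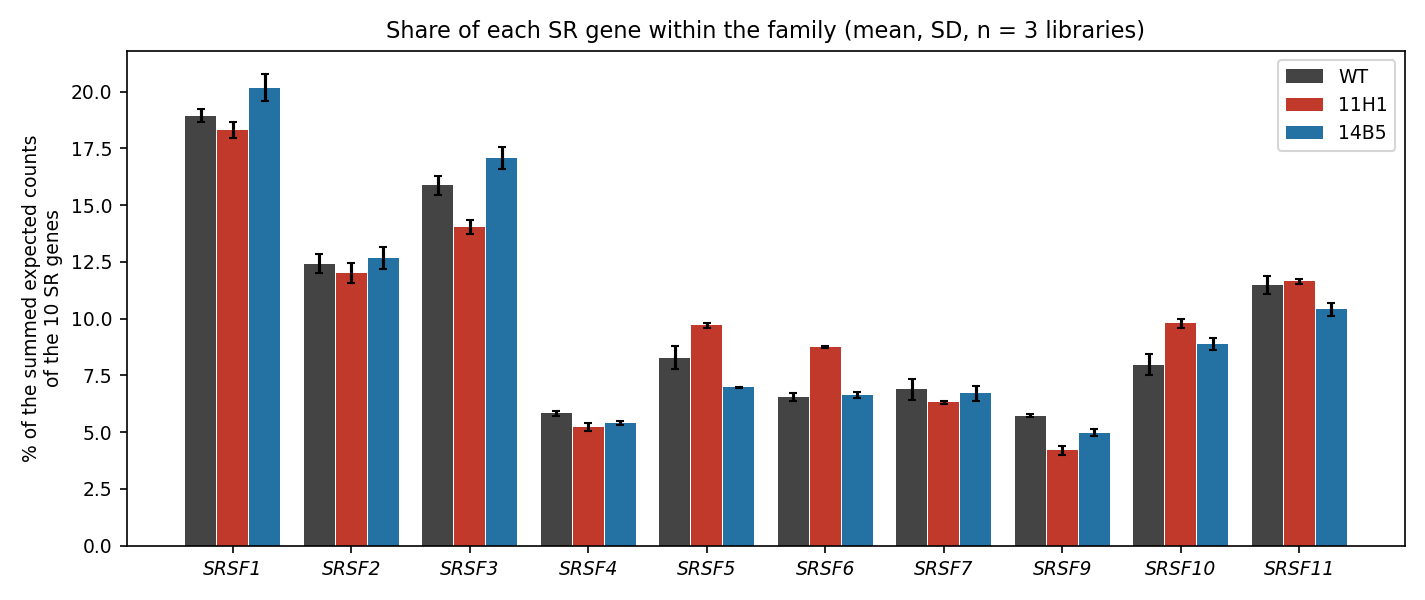
Share of each gene in the summed expected counts of the 10 SR genes (y axis, percent, from 0) in WT, 11H1 and 14B5; bars are means and error bars are SDs over 3 libraries. The bars of SRSF6 are at 6.55, 8.76 and 6.65%, those of SRSF9 at 5.73, 4.19 and 4.98%, and those of SRSF5 at 8.29, 9.72 and 6.98%.

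Among the genes whose pattern over the 9 libraries was most like that of SRSF6, by Euclidean distance of centred log2 CPM among 9379 protein-coding genes, were PAXBP1 (distance 0.063), CCNL1 (0.12), FAM111A (0.17) and NFRKB (0.18). CCNL1 encodes a cyclin with an RS domain and is itself in the list of SR-related proteins used below.

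Other splicing genes were read from 6 lists outside the family, each to be set against the shares of all genes given above (31.8% higher and 32.8% lower in 11H1, 24.9% and 28.7% in 14B5). Among the abundant genes, 33.9% were higher and 38.5% lower in 11H1, and 36.7% and 19.7% in 14B5. Not every listed gene is that abundant. Among close relatives, TRA2B, a splicing activator whose own poison exon is well known, was at 316, 301 and 304 CPM in WT, 351, 357 and 352 CPM in 11H1 and 381, 366 and 371 CPM in 14B5. TRA2B was above WT in all 6 clone libraries and rose by 0.21 (adjusted p = 0.00121) and 0.26 (adjusted p = 7.75e-04) on the log2 scale (edgeR). SRSF8, an intronless relative of SRSF2, rose by 0.18 and 0.20 (adjusted p = 0.00422 and 0.00886, edgeR). TRA2A rose by 0.41 in 11H1 (adjusted p = 7.50e-05, edgeR) and had a log2FC of 0.12 in 14B5 (adjusted p = 0.133, edgeR). SRSF12 was at 2 to 3 counts in the WT libraries and 0 in the clones, at or under the limit of 3 counts, and no fold is given.

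SR-related proteins, which carry RS domains without the typical domain order, had more calls in 11H1 than in 14B5. Of 22 genes, 19 were higher and 1 lower in 11H1 (median log2FC 0.40), and 7 were higher and 2 lower in 14B5 (median 0.11). The share higher in 14B5 (31.8%) was below that of the abundant genes (36.7%). SRRM2, a large scaffold of nuclear speckles, was at 635, 628 and 660 CPM in WT, 1281, 1112 and 1175 CPM in 11H1 and 535, 577 and 599 CPM in 14B5. SRRM2 rose by 0.90 in 11H1 (adjusted p = 9.71e-08) and fell by 0.19 in 14B5 (adjusted p = 0.0134), a difference between the clones of 1.07 (adjusted p = 3.92e-08, all edgeR). The 14B5 call of SRRM2 was lost without 14B5 library 1 (adjusted p = 0.0647, edgeR). PNN, an RS-domain protein associated with the exon junction complex, was at 0.76 between the clones (adjusted p = 9.65e-08, edgeR). CCNL1 rose in both clones, by 0.71 and 0.18 (adjusted p = 1.98e-07 and 0.0176, edgeR), as did SCAF8, which binds the tail of RNA polymerase II, by 0.45 and 0.26 (adjusted p = 6.38e-05 and 0.00830, edgeR). The 14B5 call of CCNL1 was lost without WT library 2 (adjusted p = 0.0573, edgeR).

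The kinases, phosphatases and importer that act on SR proteins showed no common direction, with 5 of 16 higher and 4 lower in 11H1 (median log2FC 0.02) and 3 higher and 3 lower in 14B5 (median 0.08). SRPK2, a cytoplasmic SR protein kinase, was at 27.4, 26.5 and 30.5 CPM in WT, 21.6, 20.3 and 21.0 CPM in 11H1 and 17.4, 17.8 and 17.5 CPM in 14B5. SRPK2 thus fell in both clones, by 0.41 and 0.69 on the log2 scale (adjusted p = 1.51e-04 and 8.98e-06, edgeR). DYRK3 rose by 0.20 and 0.28 (adjusted p = 0.0100 and 0.00376, edgeR), but the 11H1 call was lost without WT library 1 (adjusted p = 0.0537) or 11H1 library 1 (adjusted p = 0.0645). DYRK1B, the closest paralog of DYRK1A, rose in 11H1 by 0.89 (adjusted p = 2.01e-04, edgeR) from a WT mean of 1.34 CPM. Of the CLK kinases, CLK2 rose by 0.64 in 11H1 and 0.17 in 14B5 (adjusted p = 2.60e-07 and 0.0139, edgeR), CLK4 rose in 11H1 by 0.43 (adjusted p = 3.04e-04, edgeR), CLK3 fell in 14B5 by 0.24 (adjusted p = 0.00429, edgeR) and CLK1 passed the test in neither; the CLK genes are named here after their values were seen, and leaving out libraries was not run for them. PPP1CB, a catalytic subunit of protein phosphatase 1, fell in 11H1 by 0.43 and rose in 14B5 by 0.19 (adjusted p = 3.13e-05 and 0.0381, edgeR), and its 14B5 call was lost without WT library 1 or 2 or 14B5 library 1 or 2 (adjusted p from 0.0852 to 0.130, edgeR).

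The hnRNP proteins, which often oppose SR proteins at splice sites, were the list in which the clones gave the same number of rises, 15 of 25 in each, with 3 lower in 11H1 and 2 lower in 14B5 (medians 0.15 and 0.18). HNRNPA0 went against the list and fell by 0.45 and 0.43 (adjusted p = 6.11e-06 and 1.74e-04, edgeR). PTBP2, a repressor of neuronal exons, rose by 0.43 and 0.32 (adjusted p = 1.56e-05 and 0.00107, edgeR). Between the clones, HNRNPH1 differed by 0.46, with 11H1 above 14B5 (adjusted p = 3.56e-06, edgeR), and PCBP1 by −0.41 (adjusted p = 6.90e-06, edgeR).

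Among 20 genes of the U1 and U2 particles and of splice site recognition, 10 were higher and 4 lower in 11H1 (median 0.14) and 8 higher and 1 lower in 14B5 (median 0.11). The share higher in 14B5 (40%) was close to that of the abundant genes (36.7%). SF1, the branch point binding protein, rose by 0.54 and 0.26 (adjusted p = 7.05e-07 and 9.60e-04, edgeR), and SF3B3, a subunit of the U2 particle, rose by 0.36 in each clone (adjusted p = 9.04e-05 and 1.93e-04, edgeR). SNRNP70, the U1 protein that SRSF1 contacts, was at 223, 217 and 195 CPM in WT, 342, 345 and 335 CPM in 11H1 and 217, 216 and 225 CPM in 14B5. SNRNP70 rose in 11H1 by 0.69 (adjusted p = 5.46e-07, edgeR) and exceeded its 14B5 level by 0.64 (adjusted p = 1.28e-07, edgeR). U2AF1, which reads the 3′ splice site, differed by 0.51 between the clones, with 11H1 above 14B5 (adjusted p = 1.88e-06, edgeR), but this value is uncertain because the build also holds a near-identical copy, U2AF1L5, with means of 331, 337 and 346 CPM in WT, 11H1 and 14B5.

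In nonsense-mediated decay and the exon junction complex, no gene was lower in either clone, while 11 of 15 were higher in 11H1 and 10 in 14B5 (medians 0.30 and 0.16). SMG5 rose by 0.55 and 0.25 (adjusted p = 1.03e-06 and 0.00158, edgeR) and MAGOHB rose by 0.27 and 0.28 (adjusted p = 0.0173 and 0.00999, edgeR). The 11H1 call of MAGOHB was lost without WT library 3 or 11H1 library 2 or 3 (adjusted p from 0.0512 to 0.0778, edgeR). SMG1, the kinase that starts decay, and SMG6, its endonuclease, had levels in 11H1 above those in 14B5, by 0.49 and 0.34 (adjusted p = 9.54e-06 and 8.47e-05, edgeR), although the reads of SMG1 can be shared with its pseudogene copies.

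**Figure D4:**
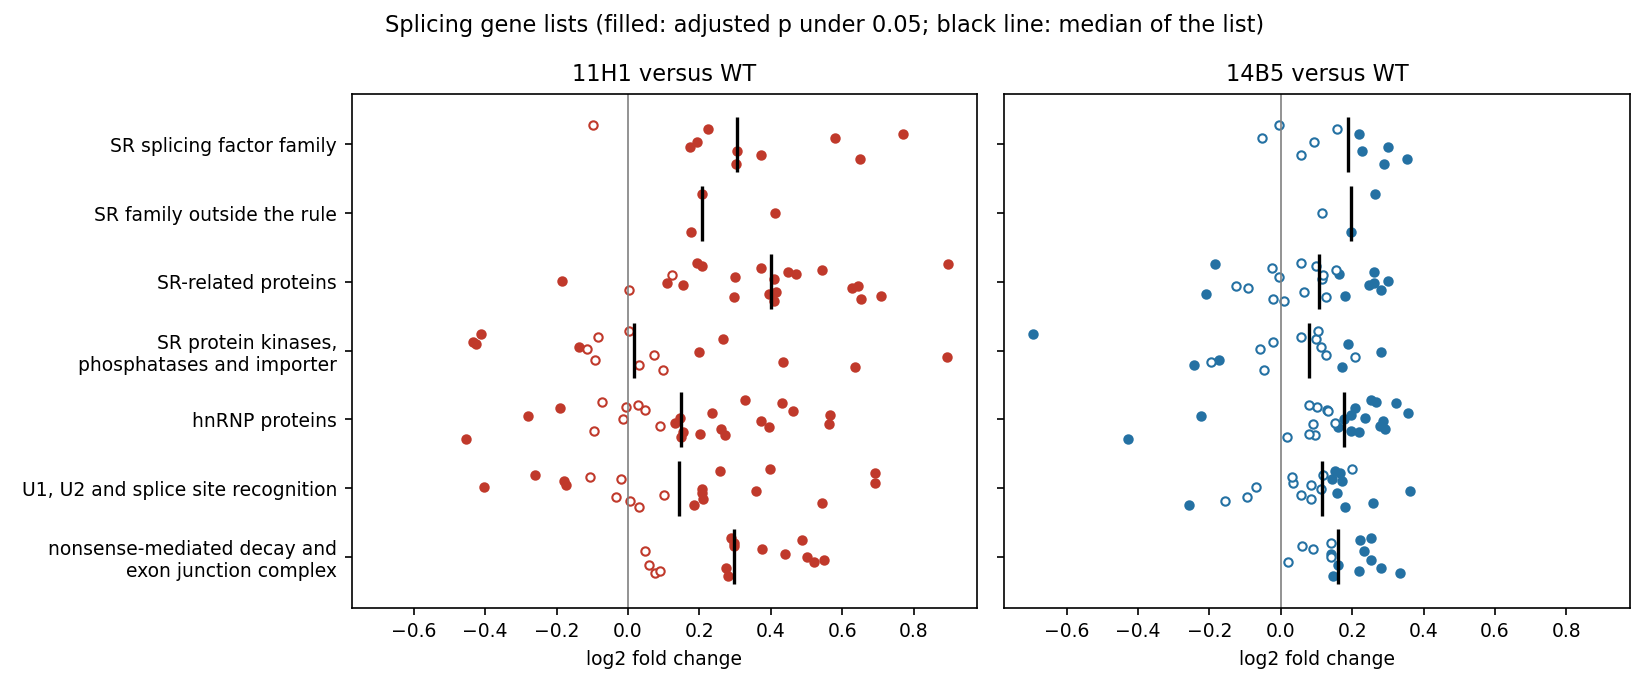
log2 fold change (x axis) of each tested gene in 7 splicing gene lists for 11H1 (left) and 14B5 (right) against WT; filled points have an adjusted p under 0.05 and black lines are list medians. In 11H1 the medians of the SR family and of the SR-related proteins are 0.30 and 0.40, against 0.19 and 0.11 in 14B5, while the medians of the hnRNP proteins are 0.15 and 0.18.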

How the data were processed

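RNA-seq was analysed for 9 SET2 libraries, grouped by their labels into WT, 11H1 and 14B5 (n = 3 each). Per the submitters' processing notes and the methods, reads were aligned with STAR (2.7.9a) to GRCh38, processed with Picard and quantified with RSEM, and the authors deposited expected counts per gene. The labels name a SMARTER mRNA kit and the methods a TruSeq stranded one, and the annotation release is not given in the sources used here. The study describes its KO group with fewer libraries than the 6 used here.

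Expected counts, as deposited, were rounded and tested with edgeR (4.0.16, R 4.3.3): TMM, filterByExpr, a quasi-likelihood F test in each pair of groups and of both clones against WT, and Benjamini-Hochberg adjustment over all genes tested (threshold 0.05). All 10 SR genes passed the filter in the 4 comparisons. The 92 rows for spike-in controls held 0 counts and were left out. Levels are counts per TMM-scaled library size over the 9 libraries (CPM). Coordinates and lengths came from GENCODE 29, matched by gene ID without its version, and promoters from RefSeq. Intervals are 95% from the model. Markers counted from 1 CPM upward.

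Depth ranged from 32347779 to 60272245 expected counts per library. No 2 libraries of a group held identical values. Processed copies (SRSF1P1, SRSF9P1 and SRSF10P1) were at 0. Alternatives were DESeq2 (1.42.0) size factors and Wald test, limma-voom (3.58.1) on unrounded values, no filter, protein-coding genes only, no mitochondrial genes, a replicate block, a fit of 3 groups, a test for a fold beyond 1.2, each library left out, union exon lengths, and sums without SRSF1 and SRSF6, the last added after the data were seen. The fit was tested on simulated data with less spread than KO against WT has, so that check does not cover the pooled comparison. For the other comparisons, whether the check covers fold changes as small as those of most members, or as many calls, was not tested.

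The members, lists and tests were chosen with earlier results of these data known. From each list were named 2 genes past the threshold in the same direction in both clones, ranked by the smaller of their 2 changes. Also named were the 2 with the largest difference between the clones, and DYRK1A. For SRSF6, the member with the widest range of group means, the 5 protein-coding genes of at least 10 CPM and the smallest distance were taken, of which 1 is not reported here.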

Additional observations from a re-analysis of the deposited data

Results flagged for a closer look

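In all, 5 of the 10 members differed between the clones by the direct edgeR test of 11H1 against 14B5 (Benjamini-Hochberg over 16352 genes, n = 3 each). As a count this is no more than the background, since 31.6% of all tested genes were higher and 32.1% lower in 11H1. The abundant genes leaned the other way from the members, with 23.0% higher and 51.9% lower in 11H1. SRSF5 had a log2 difference between the clones of 0.62, SRSF6 of 0.54, SRSF11 of 0.30 and SRSF10 of 0.28, all higher in 11H1, and SRSF3 one of −0.14, lower in 11H1. Since each clone is 1 founder cell, a difference between the edited alleles and one between founder cells cannot be told apart. The genes within 5 Mb had a median of −0.27 for SRSF11, −0.10 for SRSF10, −0.0023 for SRSF5, 0.07 for SRSF6 and 0.03 for SRSF3. A part of the region was not tested.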

How the results depend on the processing

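Testing for a fold beyond 1.2 reduced the SR genes called higher to 4 in 11H1, 0 in 14B5, 2 between the clones (with 0 lower) and 1 in KO, and all genes called to 6558, 4582, 5481 and 2794. SRSF9 was also called lower in 11H1 than in 14B5, making 2, with the DESeq2 Wald test and without a filter. The fit of 3 groups called 10245 genes in KO against WT, beside 5471, and the cause was not tested. In KO that fit also called SRSF5, SRSF7 and SRSF11 higher. SRSF7 was called in KO with the Wald test, limma-voom and no mitochondrial genes too. In 14B5, SRSF4 and SRSF7 were also called higher with the DESeq2 Wald test and in the fit of 3 groups, and SRSF7 without a filter. Among protein-coding genes SRSF4 was called higher in 11H1 than in 14B5. Without mitochondrial genes the family totals were 2828, 3607 and 3286 CPM in WT, 11H1 and 14B5, since the library sizes are then smaller. Without SRSF1 and SRSF6 in the sum, chosen after seeing the data, the ratio of 11H1 to WT was 1.24.

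No shared deviation was seen in same-numbered libraries (r from −0.586 to 0.338 over 9786 genes), and differently numbered ones ran from −0.449 to 0.501. With 3 libraries per group this cannot show whether the numbers pair the samples. With a replicate block the SR genes called higher were 9, 5, 4 and 3 in 11H1, 14B5, between the clones and in KO, and all genes called 10710, 7529, 10099 and 3937.

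Leaving out each library in turn, the SR genes called higher numbered 8 to 9 in 11H1, 5 to 6 in 14B5, 4 between the clones and 3 to 7 in KO, with 3 without WT library 2 and without WT library 3. Those called lower numbered 0 to 1 in 11H1 (SRSF9, without WT library 3) and 0 to 2 between the clones, with 0 without 11H1 library 1 and 2 without 11H1 library 2 or 14B5 library 2.

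Signs turned only for values near 0 that were called in neither direction. In 14B5, SRSF9 was at 0.0067 with DESeq2 size factors, 0.019 with the Wald test, 0.031 without a filter, 0.010 in the fit of 3 groups and −0.019 to 0.038 with a library left out. There, SRSF5 ran from −0.099 to 0.020 (positive without WT library 1), SMG1 from −0.048 to 0.10 and SNRNP70 from −0.0068 to 0.074. Between the clones, SRSF1 was at 0.0023 with DESeq2 size factors, 0.039 among protein-coding genes and −0.035 to 0.030 with a library left out. Among protein-coding genes SRSF8 was at 0.0057, SF3B3 at 0.019 and MAGOHB at 0.016. With a library left out SF3B3 ran from −0.047 to 0.015, MAGOHB from −0.080 to 0.080 and HNRNPA0 from −0.085 to 0.013. In KO against WT, PCBP1 ran from −0.027 to 0.071 and was negative without WT library 1 and without each 14B5 library (−0.015, −0.027, −0.0098 and −0.00056).

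Counting error was at most 1.49% of a member's count, and depth does not make up for having 1 founder per clone.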
